A study of Homo sapiens with 33 samples.

Results

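BCL2L11 (BIM), BMF, BBC3 (PUMA), PMAIP1 (NOXA), BID, BIK, BCL2, BCL2L1 (BCL-XL), MCL1 and BAX are genes of the BCL2 family of apoptosis regulators. They were taken by symbol from the deposited gene table, in which all 10 were present among 56470 symbols, and all 10 passed the filter on low counts in each line. Poly(A) RNA was sequenced from 3 established head and neck squamous cell carcinoma (HNSCC) lines, namely SCC25, UM-SCC-6 (called SCC6) and UM-SCC-1 (called SCC1). Cells of each line received 100 nM cetuximab (CTX), an antibody that blocks the epidermal growth factor receptor (EGFR), or PBS as the untreated control, and RNA was taken day by day. There were 33 libraries. Each line had PBS libraries of days 0 to 5, and CTX libraries of days 1 to 5 in SCC1 and SCC25. In SCC6 the labels give day 2 for 2 CTX libraries, called 2a and 2b here, and day 1 for none. A line, treatment and day was thus 1 library, except CTX day 2 of SCC6, and the days 1 to 5 (n = 5 for each treatment in a line) stood in for replicates. The labels do not say whether the days were separate cultures, so the p-values measure the spread between these libraries, which may be technical. Each line is 1 tumour-derived culture with no stromal or immune cells. The labels give a growth medium that differed between the lines, whereas the study's methods name 1 for all.

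The BCL2 family decides whether the outer mitochondrial membrane is opened, which releases cytochrome c and starts the caspase cascade. BAX is one of the proteins that form the pores, BCL2, BCL-XL and MCL1 hold it and the BH3-only proteins in check, and the BH3-only proteins BIM, BMF, PUMA, NOXA, BID and BIK carry the death signal by binding the pro-survival members. In epithelial cells the EGFR signals through the ERK and AKT kinases, and both are known to hold down BIM, through degradation of the protein and through the FOXO transcription factors that act on its gene.

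The stretches upstream of 3 members are shown, 2 of which carry motifs searched for and 1 of which carries none: BCL2L11 and BMF, which were higher with CTX in SCC1 and SCC6, and BCL2, the member with the lowest adjusted p for a difference between lines in the change under CTX. Each is the 250 bases before a start that RefSeq lists for the gene, 5′ to 3′ on the gene's own strand, on GRCh38.p14. They lie at chr2:111120664-111120913 (plus strand, BCL2L11), chr15:40108880-40109129 (minus strand, BMF, before the farther upstream of 2 listed starts) and chr18:63319770-63320019 (minus strand, BCL2). Capitals mark matches to GTAAACA, the core that forkhead factors such as FOXO bind, and to GCCNNNGGC, the AP-2 motif, on either strand.
BCL2L11: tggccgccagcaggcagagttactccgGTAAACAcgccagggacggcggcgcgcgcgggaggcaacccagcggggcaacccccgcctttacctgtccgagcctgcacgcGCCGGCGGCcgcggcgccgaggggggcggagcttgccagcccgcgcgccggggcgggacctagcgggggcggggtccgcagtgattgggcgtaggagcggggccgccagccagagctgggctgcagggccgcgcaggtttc
BMF: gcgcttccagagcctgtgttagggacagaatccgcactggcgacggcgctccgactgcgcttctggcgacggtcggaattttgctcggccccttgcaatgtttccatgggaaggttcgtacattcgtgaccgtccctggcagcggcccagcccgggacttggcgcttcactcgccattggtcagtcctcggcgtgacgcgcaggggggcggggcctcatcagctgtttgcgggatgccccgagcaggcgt
BCL2: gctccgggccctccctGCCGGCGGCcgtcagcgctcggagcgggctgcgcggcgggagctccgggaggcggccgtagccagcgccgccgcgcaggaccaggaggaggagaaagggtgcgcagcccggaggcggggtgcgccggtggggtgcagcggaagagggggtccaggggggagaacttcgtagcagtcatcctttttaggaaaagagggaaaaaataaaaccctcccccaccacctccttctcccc
The forkhead core began 223 bases before the BCL2L11 start and the AP-2 motif 141 bases before it, and the AP-2 motif began 234 bases before the BCL2 start. Of all 27305 RefSeq promoters of this length, 3.01% held the forkhead core and 19.6% the AP-2 motif. Promoters of 8 members were found in the table, and BIK and MCL1 were not. Of those 8, BBC3 also held the AP-1 motif TGANTCA (6.57% of all promoters), BBC3 and BAX the E-box CACGTG (6.46%), and none the CRE TGACGTCA (1.75%). A match is a run of letters, and no match says nothing about the factor.

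On GRCh37, the build of the deposited values, the BH3-only genes lie at chr2:111876955-111926021 (BCL2L11), chr15:40380091-40401093 (BMF), chr19:47724079-47736023 (BBC3), chr18:57567228-57571537 (PMAIP1), chr22:18216904-18257536 (BID) and chr22:43506756-43525718 (BIK). The pro-survival genes lie at chr18:60790579-60987361 (BCL2), chr20:30252255-30311792 (BCL2L1) and chr1:150533371-150552214 (MCL1), and BAX at chr19:49458072-49465055. These bounds are from GENCODE, whose gene starts need not be the RefSeq starts used for the stretches above. Genes on the opposite strand overlap BCL2L11 (MIR4435-2HG), BMF (BMF-AS1), BBC3 (MIR3191), BCL2L1 (ABALON, BCL2L1-AS1) and MCL1 (ADAMTSL4 and an unnamed gene), and an unnamed gene overlaps BCL2. The kit keeps strand, but whether the counting used it is not given in the sources used here, so reads of such partners may be shared.

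The estimated counts summed to between 28508758 and 80727478 per library. The lowest counts of a member were 43 for BCL2, 57 for BIK and 58 for BBC3, and MCL1 had at least 11472 in every library. Libraries were sequenced on 5 flow cells, named A to E here, which followed treatment in part: in SCC1 the PBS libraries of days 0 to 4 were on B and PBS day 5 and all CTX libraries on C. In SCC6, PBS days 0 and 1 were on C, PBS days 2 to 5 and CTX 2a, 2b and 3 on D, and CTX days 4 and 5 on E. In SCC25, PBS and CTX days 1 and 2 were on A and CTX days 3 to 5 on B. A fit in 1 line with the flow cell as a covariate rests on the flow cell that holds both treatments. In SCC1 it thus sets PBS day 5 alone against the CTX libraries. For the other PBS libraries of SCC1, treatment and flow cell cannot be told apart. In SCC25 only CTX days 1 and 2 inform it, and in SCC6 only flow cell D. SCC6 libraries also differed in how the level of all genes followed transcript GC content. The slope was 0.23 and 0.24 log2 units per 10 points of GC in PBS days 0 and 1, between -0.23 and -0.05 in the 7 libraries on flow cell D, and 0.32 and 0.17 in CTX days 4 and 5. In SCC1 it lay between -0.08 and 0.10, and in SCC25 between -0.27 (CTX day 3) and 0.12. Of 9 epithelial markers (keratins, TP63, CDH1 and EPCAM), the summed level was at least 3597 CPM (counts scaled to library size) in every library of days 1 to 5. KRT5 and KRT14, the keratins of basal squamous cells, were scarce in SCC6 (2.36 and 3.93 CPM with PBS) and abundant in SCC1 and SCC25. Endothelial markers summed to at most 2.79 CPM, and of the leukocyte markers CD3E was at 0 in 26 of the 33 libraries, PTPRC was at most 0.301 CPM and at 0 in 3, and CD68, a lysosomal protein that is not restricted to leukocytes, was found in every library (3.91 to 234 CPM).

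BMF and BCL2L11 rose in SCC1 and SCC6. BCL2, BCL2L1, BIK and BAX fell in SCC1 and SCC25, and PMAIP1 fell in SCC1 and SCC6. In edgeR's quasi-likelihood fit, with p-values adjusted over all genes tested by the Benjamini-Hochberg method, 7 of 10 members passed an adjusted p of 0.05 in SCC1 (2 higher, 5 lower), 5 in SCC6 (2 higher, 3 lower) and 4 in SCC25 (all lower). With the day as a replicate block 7 passed in SCC25, 2 of them higher, where 5121 of all 19101 genes tested passed. Without the block, 44.8% of all genes tested passed in SCC1 (22.7% higher and 22.1% lower), 30.1% in SCC6 (15.6% higher and 14.6% lower) and 18.3% in SCC25 (8.80% higher and 9.50% lower). The median log2 fold change of the members was -0.27 (SCC1), -0.11 (SCC6) and -0.13 (SCC25), against 0.02, 0.00 and 0.01 over all genes. The CTX and PBS libraries did not overlap for 5 members in SCC1, 3 in SCC6 and 3 in SCC25. Of all genes tested, 31.3%, 19.4% and 14.6% did not overlap. In bulk RNA, fewer cells of a kind and less RNA per cell cannot be told apart.

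**Figure D1:**
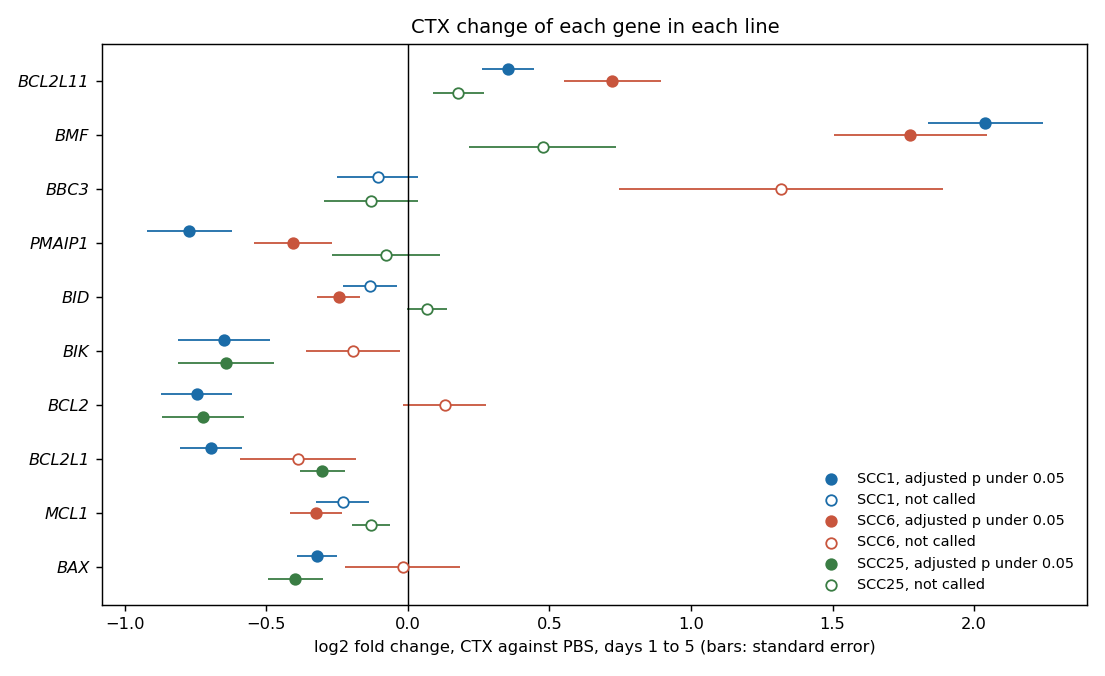
Fitted log2 fold change of each member, CTX against PBS over days 1 to 5, in each line; bars are standard errors and filled points passed an adjusted p of 0.05. BMF lies farthest to the right in SCC1 (2.04) and SCC6 (1.77), and BCL2 lies to the left in SCC1 (-0.75) and SCC25 (-0.72) but not in SCC6 (0.13).

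BMF, a BH3-only protein known for sensing loss of attachment and of growth signals, had the largest change over days 1 to 5 in SCC1 and SCC6, but not in SCC25. In SCC1 its level with PBS on days 1 to 5 was 9.94, 5.59, 5.04, 6.90 and 5.28 CPM, and with CTX 36.6, 28.5, 22.3, 22.5 and 22.9 CPM. Every CTX library stood above every PBS library, that of day 0 (17.6 CPM) included. The fitted change was 4.11-fold (log2 2.04 ± 0.20 SE, adjusted p = 8.37e-06). In SCC6 the PBS libraries held 6.99, 6.24, 6.80, 8.70 and 10.4 CPM, and the CTX libraries 17.3 (2a), 21.7 (2b), 17.9 (day 3), 43.4 (day 4) and 39.5 CPM (day 5). The groups did not overlap here either, and the CTX libraries of days 4 and 5, both on flow cell E, were the highest. The fitted change was 3.42-fold (log2 1.77 ± 0.27, adjusted p = 0.000624), and within flow cell D alone it was log2 1.22 (adjusted p = 0.00067). In SCC25 the PBS level fell over the days, with 14.3, 16.3, 11.0, 10.4 and 9.44 CPM, and the CTX level was 27.2, 22.5, 13.3, 11.5 and 10.8 CPM. CTX was above PBS on each of the 5 days, by log2 0.15 to 0.92, yet the groups overlapped and the change of log2 0.48 ± 0.26 did not pass (adjusted p = 0.225). With the day as a replicate block it did (log2 0.41, adjusted p = 0.032), and it was log2 1.02 (adjusted p = 0.0077) within flow cell A, which holds only CTX days 1 and 2. The SCC25 change of BMF also passed with the flow cell as a covariate, a fit that only those CTX libraries inform.

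BCL2L11, which encodes BIM, an activator that binds every pro-survival member, rose less than BMF. In SCC1 its level was 27.2, 20.05, 20.6, 23.3 and 27.0 CPM with PBS on days 1 to 5 and 32.6, 28.9, 29.2, 29.6 and 28.8 CPM with CTX. The groups did not overlap, but PBS day 0, at 30.8 CPM, lay above 4 of the 5 CTX libraries. The fitted change was 1.28-fold (log2 0.35 ± 0.093, adjusted p = 0.00771). With the flow cell as a covariate it was log2 0.16, in a fit that rests on PBS day 5 alone. In SCC6 the level was 35.7, 43.4, 42.6, 47.9 and 58.0 CPM with PBS and 66.8 (2a), 54.3 (2b), 74.7, 87.8 and 107 CPM with CTX, highest on day 5 in both arms. Only CTX 2b lay within the PBS range. The change was 1.65-fold (log2 0.72 ± 0.17, adjusted p = 0.00832), and log2 0.43 (adjusted p = 0.031) within flow cell D. In SCC25 the PBS libraries held 16.5, 16.9, 16.5, 20.2 and 19.9 CPM and the CTX libraries 17.8, 19.9, 19.3, 22.3 and 22.4 CPM. CTX was above PBS on each day, by log2 0.12 to 0.24. The change of log2 0.18 ± 0.090 passed with the day as a replicate block (adjusted p = 0.038) and not without it (adjusted p = 0.192).

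**Figure D2:**
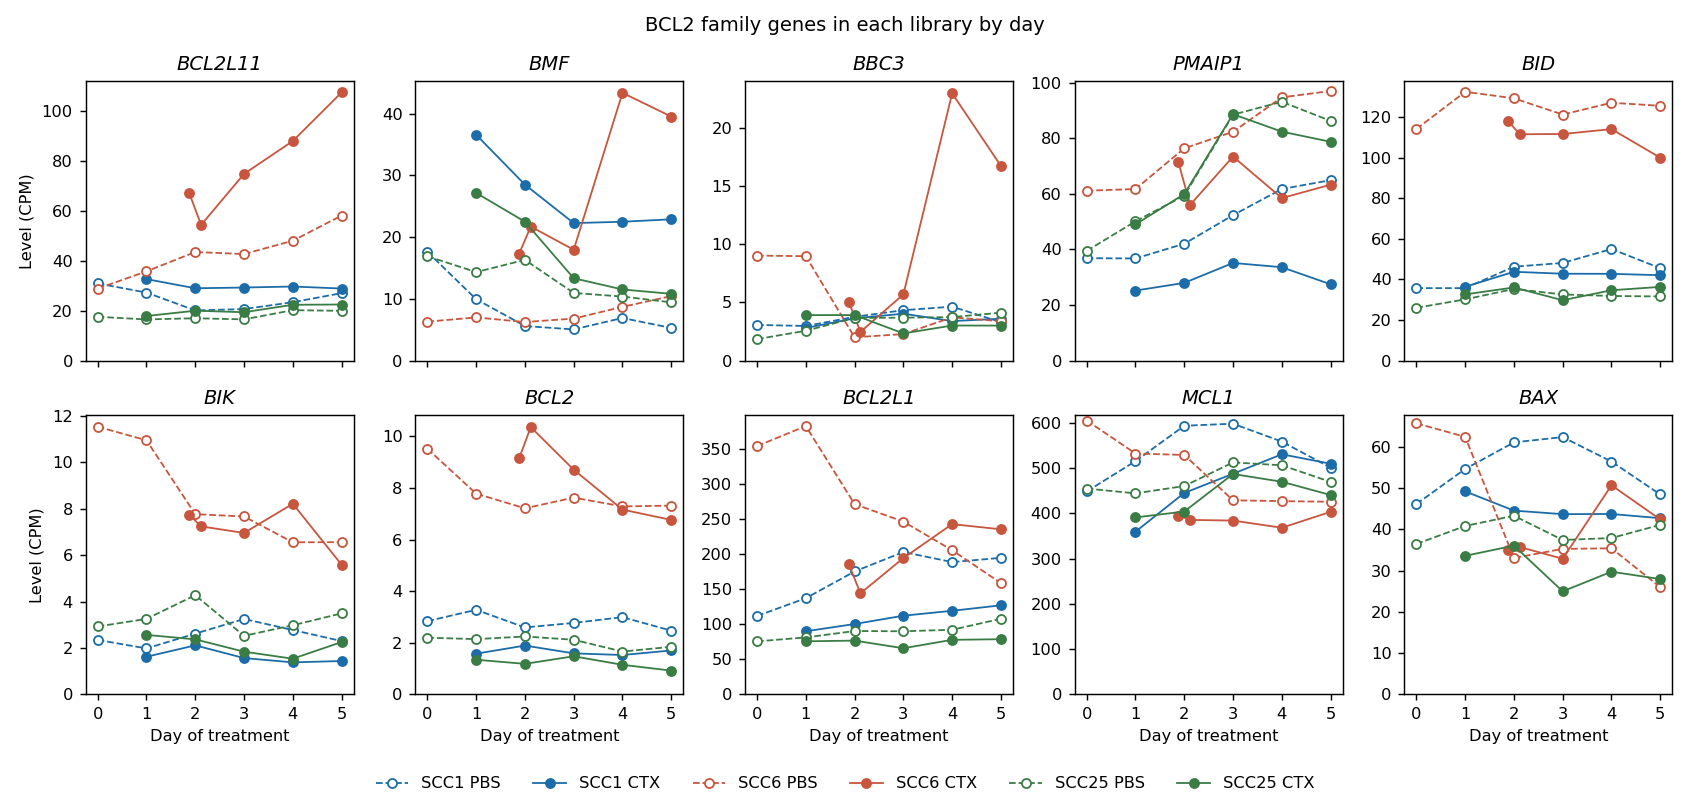
Level of the 10 members (CPM, linear axes from 0) by day in each library, open points and dashed lines for PBS and filled points and solid lines for CTX. BMF with CTX stays above PBS in SCC1 (22.3 to 36.6 against 5.04 to 9.94 CPM) and SCC6, and BCL2 with CTX stays below PBS in SCC1 and SCC25.

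**Figure D3:**
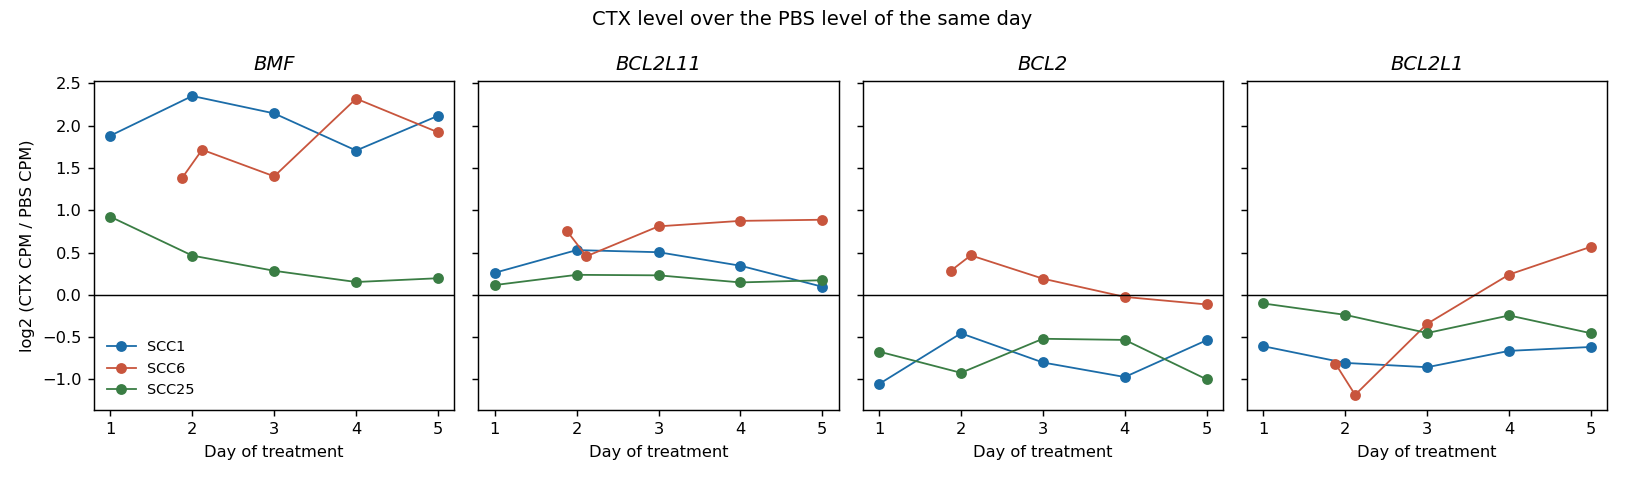
log2 ratio of the CTX level to the PBS level of the same day, by day and line, with both SCC6 CTX libraries labelled day 2 set against the mean of PBS days 1 and 2. BMF and BCL2L11 lie above 0 at every point in all 3 lines, with BMF at 1.70 to 2.35 in SCC1, at 1.39 to 2.32 in SCC6 and at 0.15 to 0.92 in SCC25.

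BBC3, which encodes PUMA, a p53-responsive BH3-only protein, passed in no line over days 1 to 5. In SCC1 the CTX libraries held 2.80 to 4.03 CPM and the PBS libraries 2.97 to 4.64 CPM, and in SCC25 2.34 to 3.91 against 2.56 to 4.12 CPM. In SCC6 the libraries differed by flow cell: PBS held 8.98 CPM on day 1 (flow cell C) and 2.00, 2.28, 3.72 and 3.39 CPM on days 2 to 5 (D), and CTX held 5.07 (2a), 2.46 (2b) and 5.69 CPM (day 3, D) and 23.0 and 16.7 CPM on days 4 and 5 (E). The fitted SCC6 change was log2 1.32 ± 0.57 (adjusted p = 0.102). It passed without PBS day 1 (log2 1.81, adjusted p = 0.027) and without CTX 2b (log2 1.56, adjusted p = 0.036), and was log2 0.79 (adjusted p = 0.054) with the GC trend of each library removed, and log2 0.66 (adjusted p = 0.044) with the day as a replicate block as well. The BBC3 transcript has 69.7% GC, the highest of the members, where the median of the genes tested in SCC6 was 48.4%.

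PMAIP1 encodes NOXA, a BH3-only protein that binds MCL1. In SCC1 it rose in culture with PBS, at 36.8, 42.1, 52.4, 61.8 and 65.0 CPM on days 1 to 5, and held 25.2, 28.0, 35.2, 33.6 and 27.5 CPM with CTX. No CTX library reached the PBS range, and the change was 1.71-fold lower (log2 -0.77 ± 0.15, adjusted p = 0.00114). In SCC6 PBS held 61.8, 76.4, 82.4, 94.8 and 97.1 CPM and CTX 71.4 (2a), 56.1 (2b), 73.5, 58.5 and 63.3 CPM. The groups overlapped, and the change of log2 -0.41 ± 0.14 (adjusted p = 0.0412) did not pass with the day as a replicate block (log2 -0.40, adjusted p = 0.069). In SCC25 the libraries held 50.1 to 93.2 CPM with PBS and 49.0 to 88.7 CPM with CTX, lowest on day 1 in both arms, and the change was log2 -0.08 ± 0.19 (adjusted p = 0.814).

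BID, which links the death receptors to mitochondria once caspase-8 cuts it, fell only in SCC6 by this test. There PBS held 133, 129, 121, 127 and 126 CPM and CTX 118 (2a), 112 (2b), 112, 114 and 100.1 CPM, with no overlap. The change was log2 -0.25 ± 0.077 (adjusted p = 0.0311), and it did not pass with the flow cell as a covariate (adjusted p = 0.069) or within flow cell D (adjusted p = 0.089). BIK, a BH3-only protein of the endoplasmic reticulum, was scarce. In SCC1 it held 1.98, 2.62, 3.25, 2.77 and 2.30 CPM with PBS and 1.62, 2.11, 1.57, 1.38 and 1.44 CPM with CTX, 1.57-fold lower (log2 -0.65 ± 0.16, adjusted p = 0.00626). Only CTX day 2 lay within the PBS range. In SCC25 BIK held 3.25, 4.27, 2.52, 2.98 and 3.49 CPM with PBS and 2.56, 2.37, 1.84, 1.54 and 2.26 CPM with CTX, where only day 1 reached the PBS range. That change was 1.56-fold lower (log2 -0.64 ± 0.17, adjusted p = 0.022) and did not pass without PBS day 2 (adjusted p = 0.060) or without CTX day 4 (adjusted p = 0.054). With the flow cell as a covariate the SCC25 change of BIK did not pass (adjusted p = 0.25). In SCC1 that fit rests on PBS day 5 alone and cannot decide whether BIK fell.

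Of the pro-survival genes, BCL2 fell in SCC1 and SCC25 and did not pass in SCC6. In SCC1 it held 3.28, 2.60, 2.77, 2.99 and 2.47 CPM with PBS and 1.58, 1.89, 1.59, 1.53 and 1.70 CPM with CTX. In SCC25 it held 2.14, 2.25, 2.12, 1.66 and 1.85 CPM with PBS and 1.35, 1.19, 1.48, 1.15 and 0.924 CPM with CTX. In both lines every CTX library lay below every PBS library. The change was 1.68-fold lower in SCC1 (log2 -0.75 ± 0.12, adjusted p = 0.00039) and 1.65-fold lower in SCC25 (log2 -0.72 ± 0.15, adjusted p = 0.00571). With the flow cell as a covariate the adjusted p was 0.068 in SCC25, and within flow cell A of SCC25 it was 0.044 (log2 -0.66). In SCC1 the covariate fit rests on PBS day 5 alone and cannot decide whether BCL2 fell. In SCC6, where BCL2 was more abundant, PBS held 7.78, 7.21, 7.62, 7.28 and 7.31 CPM and CTX 9.14 (2a), 10.4 (2b), 8.70, 7.16 and 6.76 CPM. CTX was above the PBS range in 2a, 2b and day 3 and below it on days 4 and 5. The SCC6 change was log2 0.13 ± 0.15 (adjusted p = 0.542), and log2 0.34 (adjusted p = 0.049) within flow cell D, which holds the first 3 CTX libraries.

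BCL2L1, which encodes BCL-XL, the pro-survival protein of most epithelial cells, fell in SCC1 and SCC25. In SCC1 it held 137, 176, 203, 189 and 195 CPM with PBS and 90.2, 101, 112, 119 and 127 CPM with CTX, with no overlap. It was 1.62-fold lower (log2 -0.69 ± 0.11, adjusted p = 0.000251). With the flow cell as a covariate the change was log2 -0.81, in a fit that rests on PBS day 5 alone. In SCC25 it held 81.5, 90.6, 90.3, 92.4 and 108 CPM with PBS and 75.9, 76.9, 66.0, 78.0 and 78.9 CPM with CTX. The groups did not overlap, the change was 1.23-fold lower (log2 -0.30 ± 0.078, adjusted p = 0.0199), and it did not pass with the flow cell as a covariate (adjusted p = 0.14). In SCC6 the PBS level fell from 383 CPM on day 1 over 272, 247 and 206 to 159 CPM on day 5, while CTX held 186 (2a), 144 (2b), 195, 243 and 236 CPM. The change of log2 -0.39 ± 0.20 did not pass (adjusted p = 0.172), and with the GC trend removed it was log2 -0.55 (adjusted p = 0.0083).

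MCL1, a short-lived pro-survival protein and the partner of NOXA, was the most abundant member. It fell by the test in SCC6, from 532, 529, 429, 427 and 426 CPM with PBS to 395 (2a), 385 (2b), 384, 368 and 403 CPM with CTX. The groups did not overlap (1.25-fold lower, log2 -0.32 ± 0.091, adjusted p = 0.0188), and the change did not pass within flow cell D (adjusted p = 0.075). In SCC1 PBS held 501 to 598 CPM and CTX 359 to 530.3 CPM, and in SCC25 444 to 512 and 391 to 487 CPM. Those changes, log2 -0.23 ± 0.094 (adjusted p = 0.063) and log2 -0.13 ± 0.066 (adjusted p = 0.192), passed with the day as a replicate block (log2 -0.24, adjusted p = 0.037, and log2 -0.13, adjusted p = 0.029). The SCC25 change of MCL1 also passed with the flow cell as a covariate.

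BAX, the pore-forming effector, fell in SCC1 and SCC25. In SCC1 it held 54.6, 61.1, 62.4, 56.4 and 48.5 CPM with PBS and 49.2, 44.6, 43.7, 43.7 and 42.7 CPM with CTX. Only CTX day 1 lay within the PBS range, and the change was 1.25-fold lower (log2 -0.32 ± 0.071, adjusted p = 0.00278). In SCC25 it held 40.8, 43.3, 37.4, 37.9 and 41.1 CPM with PBS and 33.6, 36.1, 24.99, 29.8 and 28.0 CPM with CTX, with no overlap (1.32-fold lower, log2 -0.40 ± 0.096, adjusted p = 0.0148). The SCC25 change did not pass with the flow cell as a covariate (adjusted p = 0.20). In SCC1 it was then log2 -0.10, in a fit that rests on PBS day 5 alone. In SCC6 BAX stood at 62.4 CPM in PBS day 1 and 26.0 to 35.4 CPM in PBS days 2 to 5, and CTX held 34.9 (2a), 35.7 (2b), 32.9, 50.7 and 42.4 CPM. The change was log2 -0.02 ± 0.20 (adjusted p = 0.956) and log2 0.21 (adjusted p = 0.25) without PBS day 1.

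**Figure D4:**
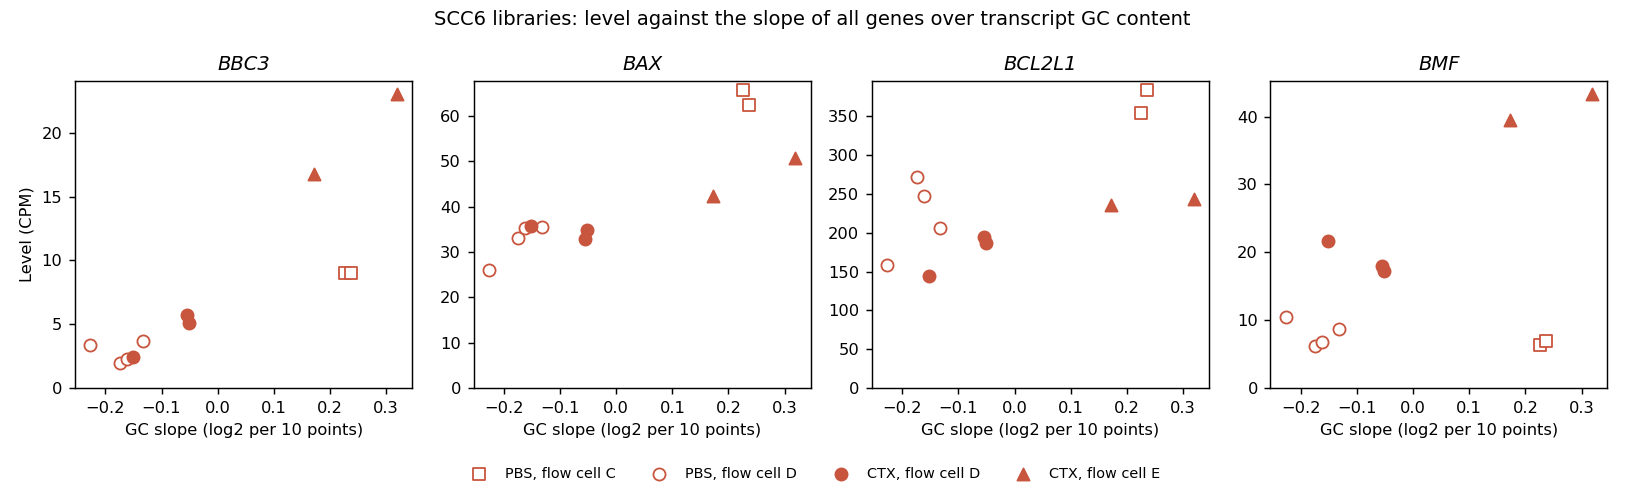
Level of 4 members in the 11 SCC6 libraries (CPM) against the slope of all genes over transcript GC content in the same library, by treatment and flow cell. BBC3 and BAX are high in the libraries with a positive slope, PBS days 0 and 1 (BAX 65.7 and 62.4 CPM) and CTX days 4 and 5, whereas BMF is low in those PBS libraries (6.31 and 6.99 CPM) and high in those CTX libraries.

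The change under CTX was then compared between lines in 1 fit over the 30 libraries of days 1 to 5. It differed across the lines for BMF (adjusted p = 0.00456) and BCL2 (adjusted p = 0.000345), 2 of 10 members, where 26.1% of all genes passed. For BMF the change in SCC25 was log2 1.55 below that in SCC1 (-1.55 ± 0.38, adjusted p = 0.00708) and log2 1.31 below that in SCC6 (-1.31 ± 0.38, adjusted p = 0.0156). For BCL2 the change in SCC6 was above that in SCC1 (log2 0.90 ± 0.18, adjusted p = 0.000566), and the change in SCC25 was below that in SCC6 (log2 -0.86 ± 0.18, adjusted p = 0.00135). For BCL2L11 the change in SCC25 was below that in SCC6 (log2 -0.56 ± 0.19, adjusted p = 0.0385). The share of all genes past the threshold was 19.3% between SCC6 and SCC1, 8.52% between SCC25 and SCC1 and 17.5% between SCC25 and SCC6. These comparisons share the libraries of each line. With the flow cell as a covariate the BCL2 differences stayed past the threshold (log2 0.90, adjusted p = 0.0079, and log2 -0.99, adjusted p = 0.0016). Those of BMF did not (log2 -1.31, adjusted p = 0.067, and log2 -0.20, adjusted p = 0.80), nor did that of BCL2L11 (log2 -0.35, adjusted p = 0.28), whose call was also lost when any 1 of 10 of the SCC6 and SCC25 libraries was left out (adjusted p = 0.054 to 0.091). With the day as a replicate block, BCL2L11 (adjusted p = 0.0041) and PMAIP1 (adjusted p = 0.015) differed across lines as well. The PMAIP1 change in SCC25 was then above that in SCC1 (log2 0.69, adjusted p = 0.012), the BCL2L11 change in SCC6 above that in SCC1 (log2 0.37, adjusted p = 0.026), and the BID change in SCC25 above that in SCC6 (log2 0.30, adjusted p = 0.031).

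With PBS, too, the lines differed in the family, in a share of members close to that of all genes. Per kilobase of transcript, with PBS on days 1 to 5 (mean ± SD, n = 5), MCL1 was the highest member, at 140.03 ± 11.2 CPM per kb in SCC1, 119 ± 14.3 in SCC6 and 121 ± 7.50 in SCC25. BCL2 was the lowest, at 0.41 ± 0.047, 1.08 ± 0.036 and 0.29 ± 0.035. In SCC1 the order below MCL1 was BAX (71.2 ± 6.99) and BCL2L1 (70.0 ± 10.1), which lay within each other's spread, then PMAIP1 (27.2 ± 6.42) and BID (21.2 ± 3.18), whose spreads also met. In SCC6 BCL2L1 (98.4 ± 32.7) came second and within the spread of MCL1, followed by BID (58.5 ± 1.92), BAX (48.4 ± 17.5) and PMAIP1 (43.4 ± 7.59), which overlapped. In SCC25 BAX (50.5 ± 3.06), PMAIP1 (39.8 ± 10.2) and BCL2L1 (36.0 ± 3.76) followed MCL1. There the spread of PMAIP1 met that of BAX and that of BCL2L1, and BID was at 14.9 ± 0.870. The other 4 BH3-only genes stayed under 10 CPM per kb in every line, with BCL2L11 at 4.64, 8.93 and 3.53, BIK at 2.72, 8.30 and 3.47, BBC3 at 2.06, 2.21 and 1.93, and BMF at 1.40, 1.67 and 2.62.

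**Figure D5:**
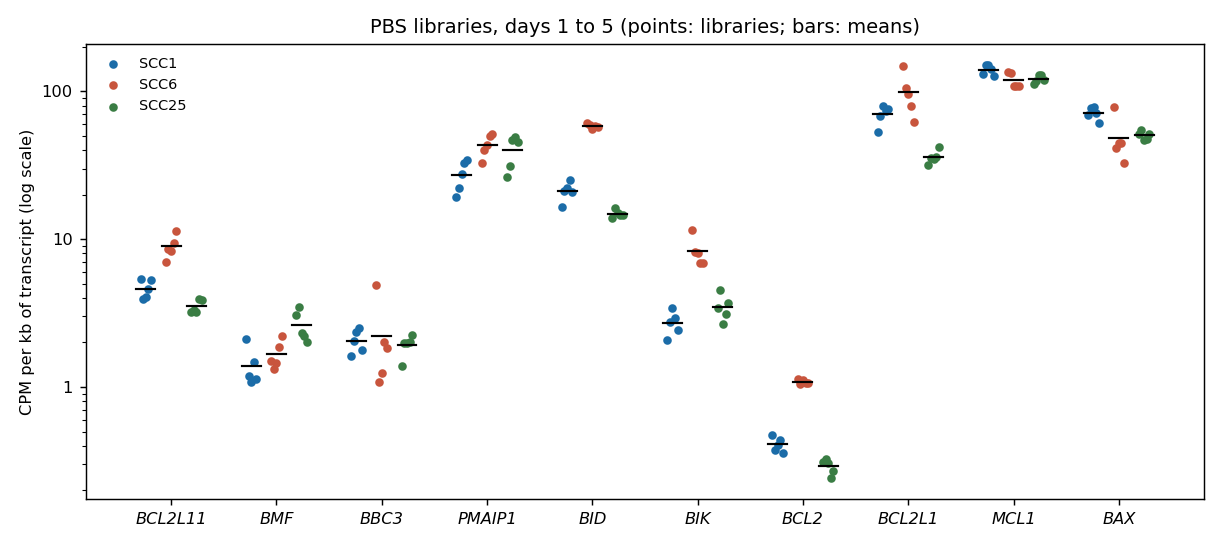
Level of each member per kilobase of transcript (CPM per kb, log axis) in the PBS libraries of days 1 to 5 of each line; points are libraries and bars means. SCC6 stands above the other lines for BCL2 (mean 1.08 against 0.41 and 0.29 CPM per kb), BID (58.5 against 21.2 and 14.9) and BIK (8.30 against 2.72 and 3.47).

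Past the threshold, SCC6 held more of 6 of the 10 members than SCC1 and more of 5 than SCC25. Against SCC1 with PBS, 8 of 10 members differed (6 higher in SCC6), where 69.1% of all genes did. BIK (log2 1.62 ± 0.17), BID (1.48 ± 0.088), BCL2 (1.41 ± 0.11), BCL2L11 (0.96 ± 0.13), PMAIP1 (0.69 ± 0.19) and BCL2L1 (0.50 ± 0.17) were higher, and BAX (-0.55 ± 0.16) and MCL1 (-0.23 ± 0.078) lower. SCC25 against SCC1 differed in 8 members, 6 of them lower in SCC25, where 68.4% of all genes differed. BCL2L1 had the largest of these differences (log2 -0.98 ± 0.17), and BMF (0.90 ± 0.20) and PMAIP1 (0.53 ± 0.19) were the higher ones, the latter with its call lost when any 1 of 4 libraries was left out (adjusted p = 0.051 to 0.058). SCC25 against SCC6 differed in 6 members, where 72.1% of all genes did: BID (log2 -2.01 ± 0.090), BCL2 (-1.92 ± 0.12), BCL2L1 (-1.48 ± 0.17), BCL2L11 (-1.37 ± 0.13) and BIK (-1.28 ± 0.17) were lower in SCC25, and BMF (0.62 ± 0.20) was higher. BBC3 passed in no pair. The lines were sequenced in part on different flow cells and, by the labels, grown in different media, so line, flow cell and any difference in medium cannot be told apart here.

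Members also moved in culture with PBS alone, over days 0 to 5 (n = 6 libraries a line). PMAIP1 rose in all 3 lines, by log2 0.19 ± 0.024 per day in SCC1 (adjusted p = 0.0132), 0.15 ± 0.024 in SCC6 (adjusted p = 0.00305) and 0.25 ± 0.034 in SCC25 (adjusted p = 0.00051). It was the only member with a slope in SCC1, where 2.49% of all genes had one (474 genes, or 24 to 1575 with 1 library left out), and its call there was lost without PBS day 1 (adjusted p = 0.077) or day 4 (adjusted p = 0.056). In SCC6 7 members had a slope, where 32.7% of all genes did: BCL2L11 (0.18), PMAIP1 and BMF (0.13) rose, and BAX (-0.26), BCL2L1 (-0.25), BIK (-0.18) and MCL1 (-0.11) fell. PBS days 0 and 1 of SCC6 were on another flow cell than days 2 to 5, and had another GC slope. BAX went from 65.7 and 62.4 CPM on days 0 and 1 to 33.1 CPM on day 2. Without PBS day 0, BMF (adjusted p = 0.12), BIK (0.085) and MCL1 (0.090) had no slope past the threshold, and BMF lost its call without any 1 of days 1, 3, 4 and 5 as well. In SCC25 BMF fell (-0.18), and PMAIP1, BBC3 (0.20) and BCL2L1 (0.09) rose, 4 members, where 10.7% of all genes had a slope. Without PBS day 0, BBC3 (adjusted p = 0.18) and BCL2L1 (adjusted p = 0.061) of SCC25 did not pass.

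The CTX change was also taken for days 1 to 3 (3 libraries a treatment) and for days 4 and 5 (2 a treatment) apart. In SCC1 7 members passed on days 1 to 3 (29.6% of all genes) and 5 on days 4 and 5 (29.9%), with BMF at log2 2.10 and 1.90, BCL2 at -0.76 in both and PMAIP1 at -0.57 and -1.05. MCL1 fell on days 1 to 3 (-0.40 ± 0.10, adjusted p = 0.0133) and was at -0.03 ± 0.13 on days 4 and 5. Its early call was lost without PBS day 2 (adjusted p = 0.057) or day 3 (adjusted p = 0.053), and that of BCL2 on days 4 and 5 without PBS day 4 or CTX day 4 or 5 (adjusted p = 0.062 to 0.11). The PMAIP1 call on days 1 to 3 was lost without PBS day 3 (adjusted p = 0.053) or CTX day 2 (adjusted p = 0.052). In SCC6 4 members passed in the earlier period (20.3% of all genes) and 5 in the later (37.8%), with BMF at 1.47 and 2.03 and BCL2L11 at 0.65 and 0.80. The BCL2L11 call on days 4 and 5 was lost without PBS day 4 (adjusted p = 0.056). BCL2L1 was lower on days 1 to 3 (-0.82 ± 0.17, adjusted p = 0.00804) and not on days 4 and 5 (0.31 ± 0.21, adjusted p = 0.275), and BBC3 was higher on days 4 and 5 (2.39 ± 0.63, adjusted p = 0.0131) and at -0.05 ± 0.51 before. With the GC trend removed the change on days 4 and 5 was log2 1.14 (adjusted p = 0.0043). That BBC3 call was lost without PBS day 4 (adjusted p = 0.072), PBS day 5 (0.086) or CTX day 4 (0.061). In SCC25 BCL2 passed on days 1 to 3 (-0.69 ± 0.15, adjusted p = 0.0208, with 7.84% of all genes past the threshold), and no member on days 4 and 5, where 2.71% of all genes did. These all-gene shares rested on few libraries: with 1 left out, between 528 and 3384 genes passed on days 1 to 3 and between 23 and 3199 on days 4 and 5, against 1626 and 562. The BCL2 call on days 1 to 3 was lost without any 1 of PBS days 1 to 3 or CTX days 1 and 2 (adjusted p = 0.051 to 0.085). In the main edgeR fit, the difference between the periods passed for no gene (0.00% of all genes in SCC1, SCC6 and SCC25). In that fit 1458, 5626 and 599 genes were at an unadjusted p under 0.05. With the GC trend removed the difference passed for 9 genes in SCC6. With no filter it passed for 202, 3366 and 7 genes, and with 1 library left out for at most 0, 1424 (without PBS day 1 of SCC6) and 2. DESeq2 called 31, 2838 and 3 genes there, among them 1 member, BCL2L1 in SCC6 (log2 1.09, adjusted p = 0.0080). The SCC6 periods are also flow cells D and E for CTX.

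Of the other genes of the pathway, 13 further BCL2 relatives were tested in SCC1, of which 5 rose and 3 fell, 11 in SCC6 (1 and 0) and 13 in SCC25 (1 and 2). For every list, the counts stand beside the share of all genes tested that passed. That share was 44.8% in SCC1 (22.7% higher), 30.1% in SCC6 (15.6% higher) and 18.3% in SCC25 (8.80% higher). HRK, another BH3-only gene, went from 1.10 ± 0.340 to 5.46 ± 3.11 CPM in SCC1 (log2 2.31 ± 0.38, adjusted p = 0.00032). BCL2L13 rose in SCC6 (0.45 ± 0.084) and BCL2L14 in SCC25 (1.09 ± 0.24), the latter at under 1 CPM. Of 19 genes of the apoptosome, caspases and their inhibitors (IAPs), 2 rose and 4 fell in SCC1. In SCC6 3 rose and 4 fell, and in SCC25 3 rose and 2 fell. BIRC3, an inhibitor of apoptosis that acts in NF-kB signalling, fell in SCC6 from 1062 to 472 CPM (log2 -1.21 ± 0.35, adjusted p = 0.022), with the call lost without PBS day 4 or 5 or CTX day 4 or 5 (adjusted p up to 0.052). CASP10, an initiator caspase, rose in SCC25 (0.41 ± 0.11, adjusted p = 0.019), with the call lost without PBS day 2 or CTX day 4 or 5 (adjusted p up to 0.055).

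Among death receptor genes, 3 rose and 4 fell of 11 tested in SCC1. In SCC6 0 rose and 2 fell of 9, and in SCC25 3 rose and 2 fell of 11. TNFRSF10A, a receptor of the ligand TRAIL, fell in all 3 lines (log2 -0.95 ± 0.12, -0.999 ± 0.13 and -0.46 ± 0.073). Of 13 transcription factors known to act on BCL2 family genes, 5 rose and 5 fell in SCC1, against 3 and 2 in SCC6 and 1 each in SCC25. MYC was lower in each line (-0.84 ± 0.12, -1.16 ± 0.15 and -1.04 ± 0.10). Of 10 p53 target genes, 4 rose and 4 fell in SCC1, 2 rose and 0 fell in SCC6, and 1 rose and 0 fell in SCC25. TP53INP1 was higher in each line (1.09 ± 0.13, 1.52 ± 0.13 and 0.98 ± 0.14). Of 14 genes known as output of the ERK pathway, none rose, and 11, 13 and 11 fell, among them EGR1 (-3.64 ± 0.31, -4.35 ± 0.24 and -2.44 ± 0.18) and PHLDA1 (-3.66 ± 0.24, -2.45 ± 0.22 and -0.61 ± 0.067). Of 10 proliferation genes, none rose, and 7 fell in SCC1, 1 in SCC6 and 6 in SCC25. MCM5 fell in SCC1 (-0.78 ± 0.081), CDK1 in SCC6 (-0.52 ± 0.16) and PLK1 in SCC25 (-0.54 ± 0.13). The CDK1 call was lost in 7 of 10 fits that left out 1 library, each of PBS days 2 to 5 and CTX days 3 to 5 (adjusted p up to 0.072).

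Other markers moved with CTX too, where 44.8% of all genes passed in SCC1, 30.1% in SCC6 and 18.3% in SCC25. The summed level of the 9 epithelial markers was 3597 to 4673 CPM with PBS and 7442 to 12454 CPM with CTX in SCC1, 5935 to 12824 and 5830 to 6674 CPM in SCC6, and 12708 to 19050 and 15139 to 18169 CPM in SCC25. Of 6 fibroblast markers, 4 rose and none fell among 4 tested in SCC1. In SCC6 2 of 2 rose, and in SCC25 3 rose and 1 fell of 6. Their summed level went from 20.6 to 32.5 CPM with PBS to 48.8 to 145 CPM with CTX in SCC1, from 2.88 to 5.09 CPM to 8.76 to 101 CPM in SCC6, and from 137 to 178 CPM to 224 to 337 CPM in SCC25. Of the leukocyte markers only CD68 was tested, and it fell in all 3 lines. Their summed level went from 17.3 to 47.5 CPM with PBS to 6.21 to 9.53 CPM with CTX in SCC1, from 16.4 to 18.3 CPM to 4.06 to 7.11 CPM in SCC6, and from 165 to 234 CPM to 148 to 175 CPM in SCC25. Of 3 endothelial markers, 1 or 2 were tested in each line and none passed. The part of these shifts in the BCL2 family values was not tested.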

How the data were processed

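The deposited gene table holds estimated counts, which the authors made with Salmon 0.8.2 against hg19/GRCh37 per the submitters' processing notes, and which need not be whole (29.2% of the values above 0 were). They were rounded here. Genes were tested with edgeR 4.0.16 (R 4.3.3) after filterByExpr and TMM scaling, by two-sided quasi-likelihood F tests, with Benjamini-Hochberg adjustment over all genes tested and a threshold of 0.05, fitted per line on days 1 to 5. Levels are CPM with 1 TMM scaling over all 33 libraries. DESeq2 1.42.0, median-of-ratios scaling, no filter, the flow cell as a covariate, PBS day 0 as a control, the day as a replicate block and leaving out each library were alternatives. Removing each library's GC trend and fitting 1 flow cell alone were chosen after seeing the data. GC content came from the canonical GENCODE transcripts on GRCh37, known for 82.6% to 84.5% of the genes tested.

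The labels give the day, and libraries of the same day were paired only in the alternative with a replicate block. The main fit had no term for the day. In SCC6 days 1 and 2 formed 1 block. Deviations from the group means of the same day's PBS and CTX libraries correlated at r = 0.13 to 0.40 in SCC1 and 0.24 to 0.60 in SCC25. In SCC6 r was 0.60, -0.20 and 0.0007 on days 3, 4 and 5. For CTX 2a and 2b it was 0.54 and 0.57 against PBS day 2, and -0.46 and -0.40 against PBS day 1. No pair of libraries agreed within sampling noise. Depth was 28508758 to 80727478 counts a library, so counting error is small beside the spread between days for all members but the scarcest. The scripts were checked on simulated data. All 10 members are named, and of each list at most 2 genes called in the same direction in all lines or, failing any, at most 1 per line, each by the largest change, of which 1 is not reported here. The members and lists were chosen with earlier results of these data known.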

Additional observations from a re-analysis of the deposited data

Results flagged for a closer look

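In 7 of 60 groups of 5 libraries, 1 library stood apart from the other 4 of its group, by a gap to the nearest of them that took most of the range of the group (Dixon's ratio). Chance marks about 1 in 20 such groups. The SCC6 PBS library of day 1, the only one of its group on flow cell C, was the highest for 3 members: BBC3 at 8.98 CPM against 3.72 CPM for the next (ratio 0.754), BAX at 62.4 against 35.4 CPM (0.742) and BIK at 10.9 against 7.76 CPM (0.724). The SCC1 CTX library of day 1 stood apart for another 3 members, being the highest for BCL2L11 (32.6 against 29.6 CPM, ratio 0.786) and BAX (49.2 against 44.6 CPM, 0.717) and the lowest for BID (36.4 against 42.1 CPM, 0.772). The SCC25 CTX library of day 3, which had the GC slope of -0.27, was the lowest for BCL2L1, at 66.0 against 75.9 CPM (ratio 0.767).

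The change under CTX differed between lines in 5 member comparisons tested by the line-by-treatment terms of 1 edgeR fit. These were BCL2 between SCC6 and SCC1 (log2 0.90) and between SCC25 and SCC6 (-0.86), BMF between SCC25 and SCC1 (-1.55) and between SCC25 and SCC6 (-1.31), and BCL2L11 between SCC25 and SCC6 (-0.56). Of all genes, 19.3% passed between SCC6 and SCC1, 8.52% between SCC25 and SCC1 and 17.5% between SCC25 and SCC6. With the flow cell as a covariate, the differences of BMF and BCL2L11 did not pass. CTX was below PBS on all 5 days for BCL2 in SCC1 and SCC25, and above it in 3 of 5 SCC6 CTX libraries, with 2a and 2b set against the mean of PBS days 1 and 2.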

How the results depend on the processing

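Over 20 settings a line, BMF passed in 20 of 20 in SCC1 (log2 1.67 to 2.35) and SCC6 (1.205 to 1.90) and in 4 in SCC25 (0.25 to 1.02), and BCL2 in 18, 2 and 19. Of these settings, 10 a line left out 1 library and are not independent of each other. BCL2 in SCC1 fell short only with the flow cell as a covariate and within flow cell C. Only PBS day 5 stands against CTX there, so those fits cannot decide whether BCL2 fell. Of 270 member values under settings that kept all libraries or 1 flow cell, 24 fell short of the threshold, 24 came to pass it and 11 changed sign, none of them called. The values that changed sign were BBC3 in SCC1 (0.10 with the flow cell as a covariate, 0.082 within flow cell C), BIK (0.0026, and 0.019 within flow cell D) and BAX (0.055 and 0.072) in SCC6, and in SCC25 BBC3 (0.15 with the flow cell, 0.15 within flow cell A, 0.0078 without the GC trend and 0.014 with the day block as well) and PMAIP1 (0.054 with PBS day 0 added). The cause was not tested in any of these.

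With the replicate block (libraries paired by day), 7 members passed in SCC25, 4 differed across lines, 2 between SCC6 and SCC1, 2 between SCC25 and SCC1, and 3 passed in SCC25 on days 1 to 3. Of all genes, 5121 of 19101 passed in SCC25, and 2163 of 20740 on days 1 to 3 there. Of 21414 genes, 5602 differed across lines, 4218 between SCC6 and SCC1 and 2071 between SCC25 and SCC1. The replicate block moved no other count of members past 1.5 times. With the flow cell as a covariate, 2 members passed in SCC25, BMF (higher) and MCL1 (lower). None of the 4 members called there in the main fit (BCL2, BCL2L1, BIK and BAX) was among them. In that fit 1 member differed across lines, 0 between SCC25 and SCC1, and 1 between SCC25 and SCC6. In SCC1 the fit with the flow cell as a covariate, like the fit within flow cell C, has only PBS day 5 to set against CTX. Without the GC trend, 4 differed across lines, 2 between SCC6 and SCC1 and 3 between SCC25 and SCC1, 6 passed in SCC25 on days 1 to 3, 4 on days 4 and 5, and 3 had a slope in SCC1. Of all genes, 6916 of 16951 then differed across lines, 5313 between SCC6 and SCC1 and 2841 between SCC25 and SCC1. In SCC25, 5054 of 16582 passed on days 1 to 3 and 3308 on days 4 and 5. The SCC1 slopes numbered 1047 of 15438. With the block as well, 9 passed in SCC6 (7766 of 14686 genes) and 8 in SCC25 (7418 of 15786). In SCC6 2 passed with no filter (4769 of 38333 genes) and 3 with PBS day 0 added (5133 of 17634). The difference between periods in SCC6 passed for 1 member with DESeq2 and 3 with no filter, and 4 and 3 had a slope in SCC1.

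Leaving out each library in turn gave 3 to 6 members in SCC6, with BAX at -0.13 to 0.21, and PMAIP1 at -0.18 to 0.046 in SCC25. Of all genes, 3791 to 6614 passed in SCC6. Between 2 and 5 members then differed across lines, 1 to 5 between SCC6 and SCC1 (5 without SCC6 PBS day 1) and 1 to 2 between SCC25 and SCC1. Of all genes, 4865 to 7252 then differed across lines, 3592 to 5303 between SCC6 and SCC1 and 1443 to 2142 between SCC25 and SCC1. By period, leaving out 1 library gave 4 to 8 and 2 to 6 members in SCC1 (4067 to 5960 and 3451 to 6158 genes). In SCC6 it gave 2 to 6 on days 4 and 5 (4102 to 9173 genes) and 0 to 1 for the difference (0 to 1424 genes). Both periods of SCC25 gave 0 to 3 (528 to 3384 and 23 to 3199 genes). A slope was then left in 0 to 4 members in SCC1 (24 to 1575 genes) and 4 to 8 in SCC6 (1892 to 7137 genes). In SCC25 it was left in 2 to 4 (1090 to 2279 genes). BID and PMAIP1 in SCC6 each lost their call without PBS day 2, 3 or 4 or CTX day 4 or 5, and PMAIP1 also without PBS day 5 or CTX 2b.

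Over all genes, the flow cell as a covariate took the calls from 3496 to 1417 in SCC25 (1899 within flow cell A), and those that differed across lines from 5586 to 3080. Between SCC6 and SCC1 it left 2359 of 4128, between SCC25 and SCC1 949 of 1824 and between SCC25 and SCC6 1748 of 3750. Without the GC trend, SCC25 had 5780 (7418 with the block), SCC25 against SCC1 2841, days 1 to 3 6188 in SCC6 and 5054 in SCC25, and days 4 and 5 3308 in SCC25, where DESeq2 gave 1175. SCC1 slopes numbered 474, against 1485 with DESeq2 and 1047 without the GC trend. For the difference between periods, no filter gave 202, 3366 and 7 genes, and the GC fit 9 in SCC6. With 1 library left out, 2193 to 4006 genes passed in SCC25, 2251 to 4936 and 4102 to 9173 in the SCC6 periods, 3451 to 6158 on days 4 and 5 of SCC1, and slopes numbered 1892 to 7137 in SCC6 and 1090 to 2279 in SCC25. Counts as low as 43 limit BCL2, BIK and BBC3, and 1 library a day limits all members.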

Other observations

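The genes whose levels followed a member most closely were taken over the 33 libraries after each line's mean was removed, among 10051 genes, as Pearson's r with no test. The libraries share lines, days and flow cells. BCL2L11 went with TRIM24 (r = 0.94), SLC1A4 (0.93) and RCOR3 (0.92), and BMF with PIK3C2B (0.92), FGFR2 (0.91) and ZNF362 (0.91). PMAIP1 was closest to ZC3H12C (0.88), STK17A (0.87) and FAM84B (0.87), BID to TMED4 (0.79), TNIP1 (0.75) and ASPH (0.75), and BCL2 to NUP93 (0.86), SERPINE2 (0.83) and MOK (0.83). MCL1 followed SMURF1 (0.86), ITPRIPL2 (0.84) and TNFRSF10A (0.83), the death receptor that fell in all lines. The closest genes of BBC3 were TESK1, ITM2C and DVL2 (all 0.93), of BAX MRPL28 (0.97), VASP (0.96) and HSPBP1 (0.96), of BIK U2AF2 (0.89), PFAS (0.88) and ARPC1B (0.88), and of BCL2L1 HMOX2 (0.94), PANK4 (0.92) and IL4R (0.92). These last 12 transcripts had 57.1% to 65.8% GC, and the part of GC content in their likeness was not tested. Among the members themselves, the closest pairs were BIK with BAX (r = 0.75), BCL2L1 with MCL1 (0.74), BCL2L1 with BAX (0.72) and BCL2L11 with BMF (0.72), and BMF went against MCL1 (-0.77) and BCL2L11 against MCL1 (-0.70).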
